A study of Homo sapiens with 6 samples.

Results

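The transcripts described here are those of the Hippo pathway, its effectors YAP and TAZ, their TEAD partners and a set of their target genes, after knockdown of ERK3 in A375 cells, an established line from a human melanoma. They were taken from a list of 33 gene symbols, matched through the platform annotation with the brightest probe set kept for each gene. Of the 33 genes 30 were measured, out of 17687 genes in all. TAOK1, AMOT and AMOTL2 were not analysed here. Both groups were A375 cells transfected with DharmaFECT reagent and collected after 3 days. The siERK3 group received a predesigned Silencer Select small interfering RNA (siRNA) against ERK3, an atypical MAP kinase encoded by MAPK6, and the siCon group the negative control siRNA of the same make. Each group had 3 Clariom S Pico arrays of total RNA, and each array gave a log2 value per probe set. The labels name a single siRNA reagent against ERK3, so effects of the lost target and other effects of that reagent cannot be told apart. Whether the arrays of a group came from separate cultures is not stated, so p-values reflect the spread among these 6 arrays, part or all of which may be technical.

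The Hippo pathway is a kinase cascade that holds back cell growth. The kinases MST1 and MST2 (genes STK4 and STK3), with the scaffold SAV1, activate LATS1 and LATS2, which work with the MOB1 adaptors. LATS kinases phosphorylate YAP (gene YAP1) and its paralog TAZ (gene WWTR1), which are then kept in the cytoplasm or degraded. Without that mark, YAP and TAZ enter the nucleus and act through the DNA-binding TEAD factors on targets such as CCN1 and CCN2. In melanoma, YAP and TAZ are known for their part in invasion and in tolerance of drugs against the ERK pathway. Arrays measure transcripts, so phosphorylation and location of YAP and TAZ were not measured.

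MAPK6 had log2 values of 10.54, 10.32 and 10.67 on the siERK3 arrays, against 13.45, 13.55 and 13.62 on the siCon arrays, so its signal in siERK3 was 12.2% of that in siCon (adjusted p = 0.000133 in limma; exact two-sided permutation p = 0.1, the smallest that 3 against 3 arrays allow). Of 7 measured melanocyte lineage markers, SOX10, MITF and S100B lay above the background on all 6 arrays. The pigment cell markers PMEL, MLANA, TYR and TYRP1 lay below it on all 6. Background here is the 95th percentile of 612 negative controls on the same array, which was between 7.32 and 7.56. On the second principal component of all genes, siERK3 3 at -15.2 and siCon 2 at -26.5 had negative scores, and the scores of the other 4 were 4.35 to 21.7.

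After ERK3 knockdown, transcripts of the co-activator YAP1 and of CCN1, a secreted matrix protein and a standard YAP target, fell. YAP1 signal was 1.78-fold lower and CCN1 signal 2.19-fold lower in siERK3. The other 28 measured members did not pass the test, limma with Benjamini-Hochberg adjustment over all genes at a threshold of 0.05. The 2 calls among 30 members are to be read against the 0.956% of all genes called in either direction, and against 1.57% among genes above background on all 6 arrays. Earlier results of these data were known when the members were listed, so this and the following counts may partly reflect that choice. At an unadjusted p under 0.05 there were 13 of 30 members, against 13.5% of all genes and 17.7% of those above background. Of the 13, 8 were higher in siERK3, where 6.98% of all genes were, and 5 lower, where 6.5% were. The siERK3 and siCon arrays did not overlap for 10 members, against 19.8% of all genes and 29.5% of those above background. Of the 10, 5 were higher in siERK3 (10.1% of all genes) and 5 lower (9.7%). Of the 30 members, 21 lay above background on all 6 arrays and 5 on none. The median log2 change over the 30 members was 0.01, and over all genes 0.00. In bulk RNA, fewer cells with a transcript and less of it per cell cannot be told apart.

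**Figure D1:**
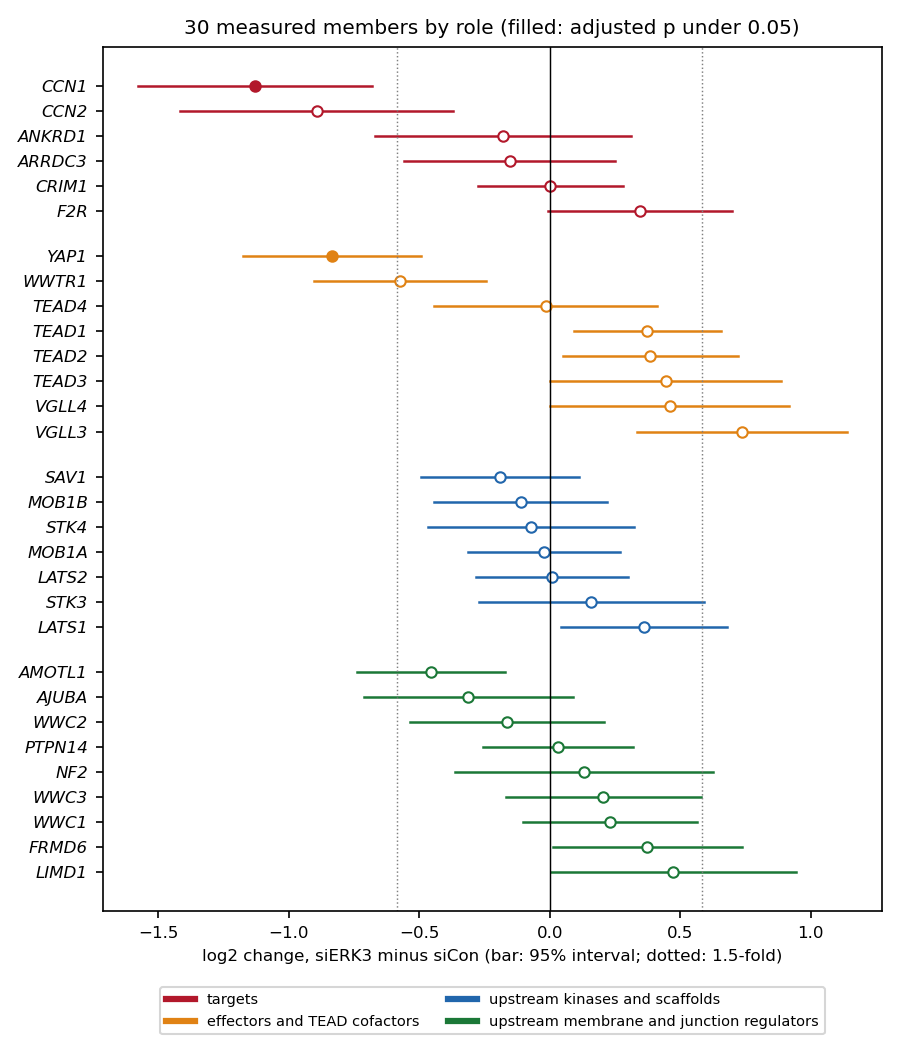
Log2 change (siERK3 minus siCon, horizontal axis) of the 30 measured members with 95% intervals from limma, grouped by role, with filled circles for adjusted p under 0.05 and dotted lines at 1.5-fold in each direction. CCN1 at -1.13 and YAP1 at -0.84 are the filled points, and the kinases and scaffolds cluster around 0.

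The upstream kinases and scaffolds had the smallest differences of the role groups. Their median size on the log2 scale, regardless of sign, was 0.11, against 0.16 over all genes. All 7 measured lay above background on all 6 arrays. In the other role groups 5 of 9 membrane and junction regulators, 5 of 8 effectors and cofactors and 4 of 6 targets did, so the ranking also compares unlike levels. None of the 7 measured members passed in limma, where 0.956% of all genes did, 1 (LATS1) was past an unadjusted p of 0.05, and the median log2 change was -0.02. For 5 of the 7 the 95% interval of the difference lay within 1.5-fold in both directions, which held for 54.6% of all genes and 65.6% of those above background.

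STK4, the MST1 kinase, had values of 10.65, 10.90 and 10.50 in siERK3, against 11.03, 10.72 and 10.53 in siCon. STK3, the MST2 kinase, had 12.05, 11.92 and 12.19 in siERK3, against 11.49, 12.14 and 12.04 in siCon, where the first array is the low one. The groups overlapped for both kinases, with log2 changes of -0.07 (SE 0.17) for STK4 and 0.16 (SE 0.19) for STK3. SAV1, which brings the MST kinases to their substrates, had a change of -0.19 with an interval from -0.49 to 0.11. MOB1A and MOB1B, the adaptors that LATS kinases need, had changes of -0.02 and -0.11.

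LATS1, 1 of the pair of kinases that phosphorylate YAP and TAZ, had 10.82, 10.87 and 11.02 in siERK3, against 10.62, 10.64 and 10.37 in siCon. All siERK3 arrays lay above all siCon arrays, by 0.36 on average (SE 0.14; adjusted p = 0.307 in limma). LATS2, its paralog and itself a known YAP target, had 8.05, 8.04 and 8.19 in siERK3, against 8.02, 8.17 and 8.05 in siCon. Its groups overlapped, and the interval of the difference ran from -0.28 to 0.30.

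The membrane and junction regulators relay cell contact and polarity to the kinases or bind YAP themselves. Of 9 measured members none passed in limma, where 0.956% of all genes did. At an unadjusted p of 0.05 there were 3, 2 higher and 1 lower in siERK3, where 13.5% of all genes were in either direction, and the median log2 change was 0.13. Background limits this group more than the kinases: 5 of the 9 lay above it on all 6 arrays.

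AMOTL1 encodes an angiomotin, a junction protein that binds YAP and TAZ. It had 11.68, 11.80 and 11.83 in siERK3, against 12.22, 12.18 and 12.27 in siCon. The arrays within each group were close together and the groups did not overlap, and the difference was -0.45 on the log2 scale (SE 0.12), with limma's adjusted p = 0.151. FRMD6, a FERM-domain protein of the membrane, had a change of 0.37, with siERK3 2 highest at 10.43 and siERK3 3 at 10.05, below siCon 1 at 10.09. LIMD1, a LIM protein that binds LATS kinases, lay above background on 1 siERK3 array and 0 siCon arrays, so no fold is given. AJUBA, of the same LIM family, averaged 5.89 in siERK3 and 6.20 in siCon, below background on all 6 arrays.

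NF2, which encodes merlin, a tumour suppressor at the membrane, had a change of 0.13, and its interval, from -0.36 to 0.63, was the widest in this role group. PTPN14, a phosphatase that binds YAP, had 11.11, 11.11 and 11.14 in siERK3, against 10.99, 11.19 and 11.09 in siCon, a difference between -0.25 and 0.32. The 3 WWC genes encode KIBRA and its relatives, which act on LATS kinases. They had changes of 0.23 (WWC1), -0.16 (WWC2) and 0.21 (WWC3), with overlapping groups. WWC3 lay below background on all 6 arrays, and WWC1 above it on 2 siERK3 arrays and 1 siCon array.

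The effectors and their TEAD cofactors did not share a direction. YAP1 fell, WWTR1 was lower on every siERK3 array without passing the test, and 5 of the 6 DNA-binding partners or cofactors had higher values in siERK3, none of them past the test. The median size of a log2 difference in this role group was 0.45 regardless of sign, against 0.16 over all genes. Of the 8 members 7 were past an unadjusted p of 0.05, 2 lower and 5 higher, where 13.5% of all genes were. The exception was TEAD4, which, like VGLL3, lay below background on all 6 arrays. TEAD3 lay above background on 2 siERK3 arrays and 0 siCon arrays. The counts and the median size thus include genes near background, and 5 of the 8 lay above it on all 6 arrays.

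YAP1 had values of 10.15, 10.53 and 10.33 in siERK3, against 11.25, 11.01 and 11.26 in siCon. The groups did not overlap, and siERK3 2 and siCon 2 were the nearest arrays of the 2 groups. YAP1 averaged 10.34 ± 0.19 in siERK3 and 11.17 ± 0.14 in siCon (SD, n = 3 each), a log2 change of -0.84 (95% interval -1.18 to -0.49; adjusted p = 0.0461 in limma), so that the siERK3 signal was 56.1% of the siCon signal. The call rested on all 6 arrays: without 1 array the change stayed between -0.93 and -0.74, and the adjusted p was 0.173, 0.107 and 0.156 without siERK3 1, siERK3 2 and siERK3 3, and 0.136, 0.0744 and 0.158 without siCon 1, siCon 2 and siCon 3. Without siERK3 3 and siCon 2, the arrays with negative scores on the second component, the change was -0.91 (adjusted p = 0.205).

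WWTR1, the TAZ gene, had 13.12, 13.30 and 13.19 in siERK3, against 13.85, 13.57 and 13.92 in siCon. As for YAP1, siCon 2 was the lowest siCon array and siERK3 2 the highest siERK3 array, and the groups did not overlap. The log2 change was -0.58 (95% interval -0.90 to -0.25; adjusted p = 0.123 in limma), which corresponds to a 1.49-fold lower signal. Whether the changes of YAP1 and WWTR1 differ from each other was not tested.

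The TEAD genes encode the factors that bring YAP and TAZ to DNA. TEAD1 had 10.42, 10.41 and 10.47 in siERK3, against 9.98, 10.10 and 10.10 in siCon. Its arrays lay close together within each group and did not overlap between groups, and the difference was 0.37 on the log2 scale (SE 0.12), with limma's adjusted p = 0.238. TEAD2 had 9.82, 9.52 and 9.85 in siERK3, against 9.41, 9.20 and 9.42 in siCon. The groups came close, at siERK3 2 and siCon 3, without overlap, and the log2 change was 0.39 (SE 0.15; adjusted p = 0.302).

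TEAD3 had 7.37, 6.83 and 7.59 in siERK3, against 6.83, 6.86 and 6.78 in siCon. It lay above background on 2 siERK3 arrays and 0 siCon arrays, and siERK3 2 lay within the siCon values. TEAD4 had 6.42, 6.80 and 6.82 in siERK3, against 6.76, 6.37 and 6.95 in siCon, with a log2 change of -0.01.

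Vestigial-like proteins bind TEAD factors on the surface that YAP and TAZ use. VGLL4, a known repressor of TEAD output, differed by 0.46 on the log2 scale (SE 0.20), with limma's adjusted p = 0.368. Its siERK3 arrays were spread widely, with siERK3 1 at 9.61 and siERK3 3 at 8.89, within the siCon values. VGLL3 had 5.82, 6.32 and 6.24 in siERK3, against 5.59, 5.20 and 5.38 in siCon. All 6 values were below background, so no fold is given, and the log2 change was 0.74 (adjusted p = 0.107).

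**Figure D2:**
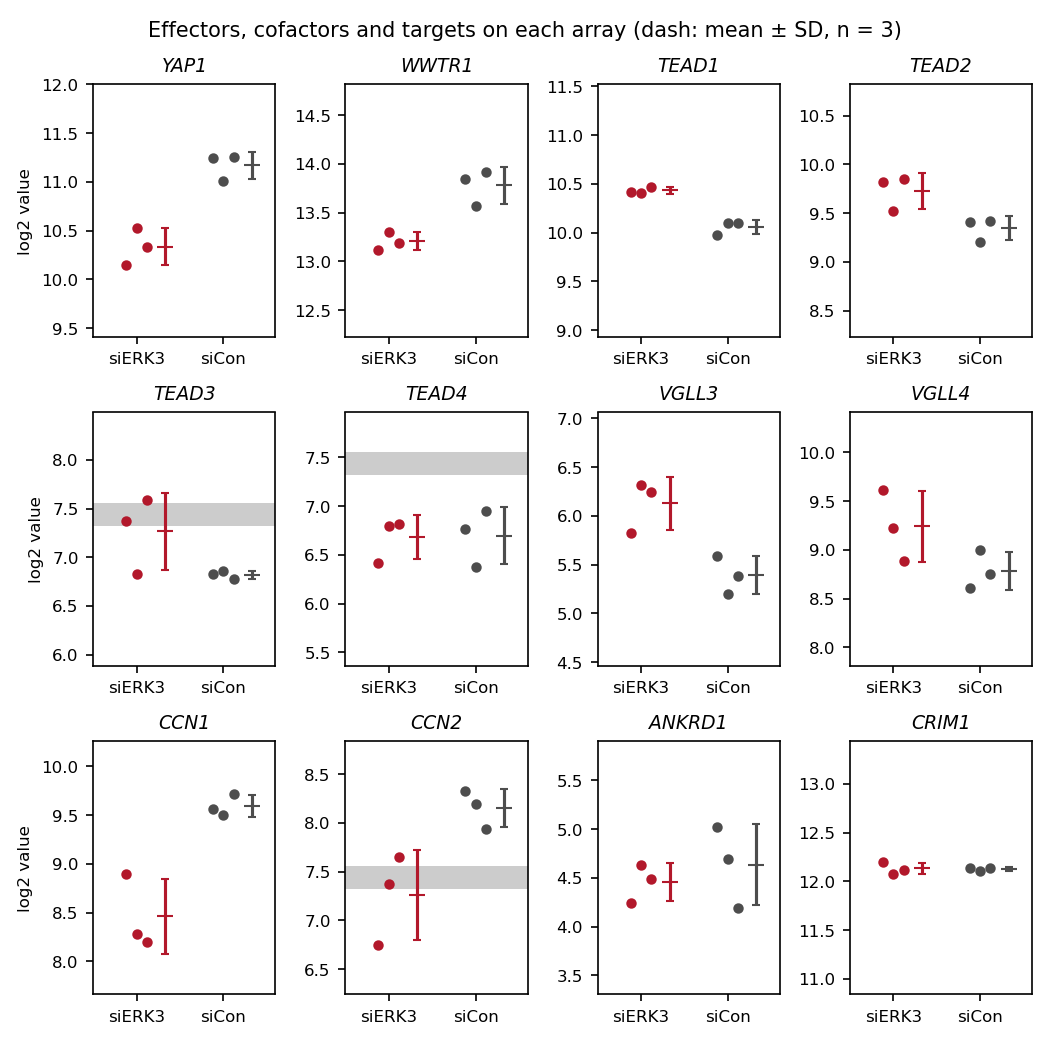
Log2 value (vertical axis, the same span in every panel) of 12 members on each of 3 siERK3 arrays and 3 siCon arrays, as points with the mean ± SD beside them, and the range of the negative controls' 95th percentile over the 6 arrays in grey where it falls within the panel. YAP1, WWTR1, CCN1 and CCN2 are lower on every siERK3 array, TEAD1 and TEAD2 higher, and CRIM1 is level.

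The targets were examined next, because their transcripts are a common readout of YAP and TAZ activity. Of the 6 measured, CCN1 fell and the other 5 did not pass in limma, where 0.509% of all genes were called lower. CCN2 was lower on every siERK3 array without passing. CRIM1, ARRDC3 and ANKRD1 showed overlapping groups, and F2R was higher on every siERK3 array. The median log2 change was -0.17.

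CCN1 encodes a secreted matricellular protein that binds integrins. It had 8.90, 8.28 and 8.20 in siERK3, against 9.56, 9.50 and 9.72 in siCon. The groups did not overlap, and siERK3 1 lay nearest to the siCon arrays. CCN1 averaged 8.46 ± 0.38 in siERK3 and 9.59 ± 0.11 in siCon (SD, n = 3 each), a log2 change of -1.13 (95% interval -1.58 to -0.68; adjusted p = 0.0427 in limma), which left 45.7% of the siCon signal. The call held without siERK3 1 (change -1.35, adjusted p = 0.0292). It was lost without siERK3 2 or siERK3 3 (adjusted p = 0.152 and 0.154) and without siCon 1, siCon 2 or siCon 3 (0.118, 0.0914 and 0.150), and in each of these fits the change kept its direction. Without both siERK3 3 and siCon 2 the change was -1.05 (adjusted p = 0.227).

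CCN2, a matricellular protein of the same family also known as connective tissue growth factor, had 6.75, 7.37 and 7.65 in siERK3, against 8.33, 8.19 and 7.94 in siCon. All siCon arrays lay above background and 1 siERK3 array did, so the size of the difference is limited by the background in siERK3. The difference was -0.89 on the log2 scale (SE 0.23), with limma's adjusted p = 0.129. The siERK3 array with the highest CCN1 value, siERK3 1, had the lowest CCN2 value.

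ANKRD1, a nuclear and sarcomeric ankyrin-repeat protein and a standard YAP target, had 4.24, 4.63 and 4.49 in siERK3, against 5.02, 4.69 and 4.19 in siCon. All 6 values were below background, where a lower level could not be seen. CRIM1, a membrane protein that binds BMPs, had 12.20, 12.08 and 12.12 in siERK3, against 12.14, 12.11 and 12.14 in siCon. Its difference lay between -0.28 and 0.28, the narrowest interval of the 30 members. F2R, the thrombin receptor, had 9.05, 8.64 and 8.84 in siERK3, against 8.64, 8.51 and 8.34 in siCon, with a log2 change of 0.35 (adjusted p = 0.381); the lowest siERK3 array and the highest siCon array were level to the second decimal. ARRDC3, an arrestin-domain adaptor, had a change of -0.15 with overlapping groups.

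TEAD factors recognise the letters GGAATG, which read CATTCC on the other strand, and both were looked for in the 250 bases before each transcription start given by RefSeq (GRCh38.p14). Windows were at hand for 26 of the 33 listed genes, 39 windows in all because some genes have several starts. The TEAD letters stood in 7 of the 39 windows (17.9%), each of a different gene, against 11.9% of all 35116 windows. These windows belong to 27305 RefSeq gene symbols and are not limited to the genes measured here. Counted by gene, 7 of 26 members (26.9%) had a match, against 14.3% of all genes. By role these were 0 of 7 kinases and scaffolds, 4 of 10 membrane and junction regulators, 1 of 6 effectors and cofactors and 2 of 3 targets. Differences between these shares were not tested. The genes with a match were YAP1, CCN2, ANKRD1, AJUBA, AMOTL2, PTPN14 and WWC2. Windows were at hand for 3 of the 6 targets, CCN2 and ANKRD1 among them. No match is listed for the called target CCN1, which may be among the targets without a window, so nothing follows for its promoter. The windows of YAP1, CCN2 and ANKRD1 are shown because YAP1 is a called effector, CCN2 and ANKRD1 are standard YAP targets, and CCN2 holds the letters most often of the 26 genes, 3 times. Capitals mark the TEAD letters, and each window is read 5′ to 3′ on the gene's own strand. In GRCh38.p14 they lie at chr11:102110197-102110446 on the plus strand (YAP1), chr6:131951373-131951622 on the minus strand (CCN2) and chr10:90921088-90921337 on the minus strand (ANKRD1), each ending at the base before the RefSeq start.
YAP1: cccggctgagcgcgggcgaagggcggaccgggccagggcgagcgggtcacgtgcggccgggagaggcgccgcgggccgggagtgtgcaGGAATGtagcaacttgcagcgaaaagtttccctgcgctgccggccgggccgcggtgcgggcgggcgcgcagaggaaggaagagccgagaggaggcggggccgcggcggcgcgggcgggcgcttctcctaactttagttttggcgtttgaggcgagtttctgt
CCN2: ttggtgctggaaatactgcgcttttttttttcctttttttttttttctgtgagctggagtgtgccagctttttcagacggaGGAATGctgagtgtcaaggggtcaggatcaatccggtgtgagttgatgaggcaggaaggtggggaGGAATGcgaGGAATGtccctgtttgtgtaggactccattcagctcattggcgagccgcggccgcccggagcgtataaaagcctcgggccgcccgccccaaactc
ANKRD1: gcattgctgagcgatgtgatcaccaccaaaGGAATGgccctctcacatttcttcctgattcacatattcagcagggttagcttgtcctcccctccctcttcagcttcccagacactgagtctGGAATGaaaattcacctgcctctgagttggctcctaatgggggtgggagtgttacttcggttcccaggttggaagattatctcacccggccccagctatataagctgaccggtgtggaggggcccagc
In the CCN2 window the letters begin 169, 104 and 95 bases before the start, in ANKRD1 220 and 128 bases, and in YAP1 162 bases. CCN2 differed between the groups by -0.89 and ANKRD1, with 2 matches, could not be read above background, so the number of matches cannot be set against the change. The AP-1 letters TGANTCA, which read the same on both strands, stood in 3 of the 39 windows (7.69%; ANKRD1, LATS1 and MOB1B), against 6.57% of all windows. The CArG box of the serum response factor stood in 0 of the 39, against 1.16% of all windows. No AP-1 match overlapped a TEAD match in the members' windows. A match is a description of the letters and not evidence of binding.

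Each role group held members with higher and members with lower values in siERK3. The median log2 change was -0.02 for the kinases and scaffolds, 0.13 for the membrane and junction regulators, 0.38 for the effectors and cofactors and -0.17 for the targets, against 0.00 over all genes. The medians summarise mixed groups: YAP1 at -0.84 and CCN1 at -1.13 are the called members, and no member with a higher value in siERK3 passed the test. Averaged over the 6 targets, the deviation from each gene's mean was -0.20, -0.15 and -0.15 on the siERK3 arrays, against 0.24, 0.18 and 0.09 on the siCon arrays. Without CCN1 and CCN2 the remaining targets lay between -0.18 and 0.35. Differences between role groups were not tested.

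**Figure D3:**
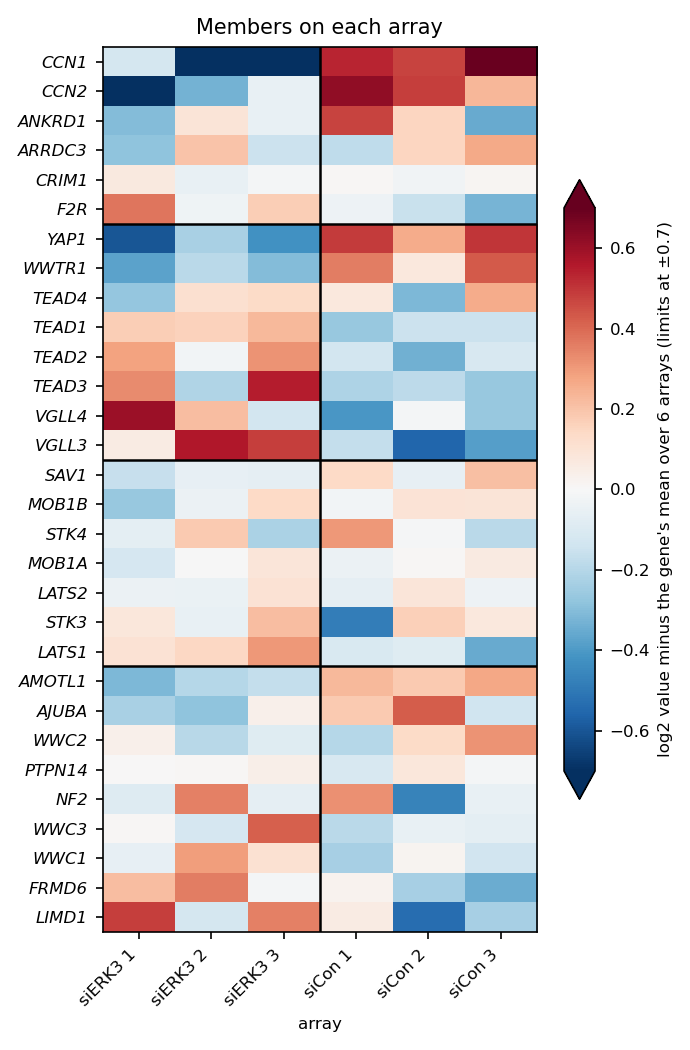
Log2 value minus the gene's mean over 6 arrays (colour, limits at ±0.7) for the 30 measured members (rows, by role from targets at the top to membrane and junction regulators) on 3 siERK3 arrays and 3 siCon arrays (columns). The mostly blue cells of YAP1, WWTR1, CCN1 and CCN2 in siERK3 stand beside mostly red ones of TEAD1, TEAD2 and VGLL3, and most kinase cells are pale, with STK3 on siCon 1 as an exception.

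The dependence of the 2 calls on single arrays is shown for 4 members. WWTR1 and CCN2 passed where only genes above the median level were tested (adjusted p = 0.028 and 0.0367 in limma) and with a mean-variance trend (0.00217 and 0.0255), and in no fit that left out an array.

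**Figure D4:**
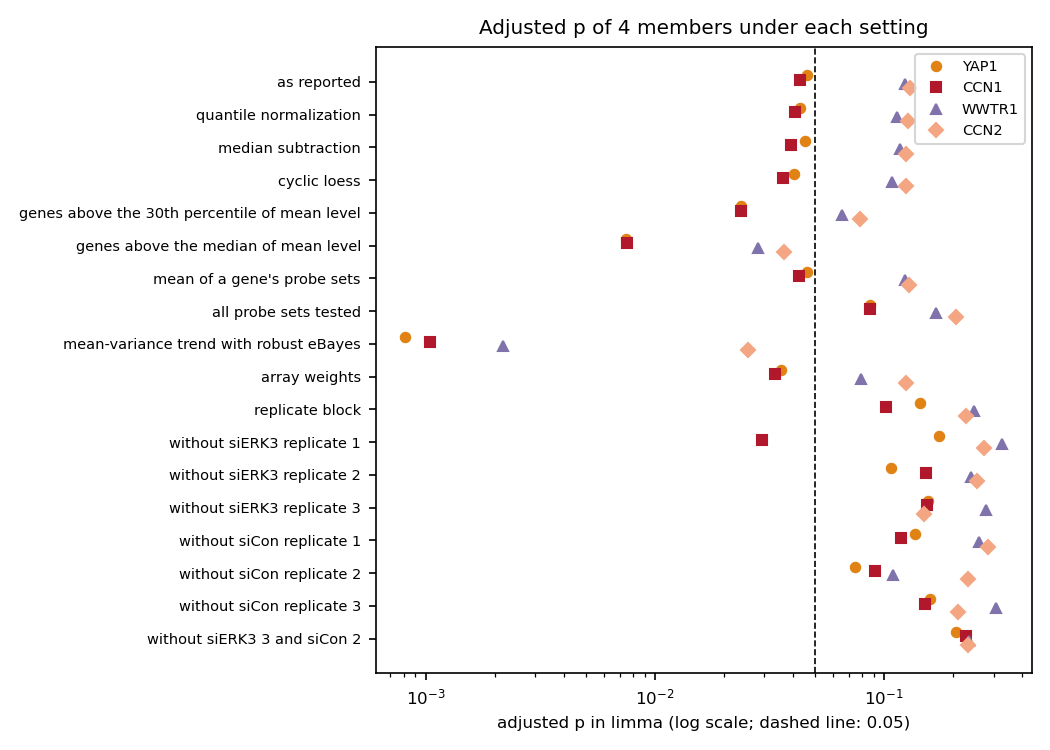
Adjusted p in limma (horizontal log axis, dashed line at 0.05) of YAP1, CCN1, WWTR1 and CCN2 under the reported fit and 17 other settings (vertical axis). YAP1 lies right of the line in all 6 fits without 1 array, and CCN1 in 5 of them.

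Further genes of the pathway were taken from 7 lists, with 120 measured genes that are not members. These lists too were chosen with earlier results of these data known, so counts from them may partly reflect that choice. NT5E fell, TPM1 rose and the other 118 did not pass in limma, where 0.956% of all genes were called. At an unadjusted p below 0.05, 14 had higher and 12 had lower values in siERK3, against 13.5% of all genes in either direction, and the median log2 change over the 120 genes was -0.04.

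Of 24 other YAP and TAZ targets, NT5E, the ectonucleotidase CD73 that forms adenosine, had 12.78, 13.13 and 13.29 in siERK3, against 14.54, 14.70 and 14.69 in siCon. Its signal was 2.99-fold lower in siERK3 (adjusted p = 0.00566 in limma; 0.0845 without both siERK3 3 and siCon 2), and the median log2 change of the list was -0.11. At an unadjusted p below 0.05, 4 of the 24, NT5E among them, were lower and 2 higher in siERK3, against 6.5% and 6.98% of all genes. Groups did not overlap for 6 lower and 2 higher, against 9.7% and 10.1% of all genes. Because the list was chosen with earlier results known, these counts are not independent of the values. The next genes by p were named after their values were seen. FOSL1, an AP-1 subunit, had a change of -0.71 (adjusted p = 0.0647) and THBS1, the matrix protein thrombospondin 1, a change of 0.76 (adjusted p = 0.0677). BIRC5 had a change of -0.57 and GADD45A of -0.69. ARHGEF17, with a change of 0.66, lay below background on all 6 arrays. AXL, a receptor tyrosine kinase often used as a YAP readout in melanoma, had a change of -0.25 with overlapping groups.

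Of 16 targets of the serum response factor and its actin-sensing MRTF cofactors, TPM1, a tropomyosin of actin filaments, had 11.00, 10.85 and 10.77 in siERK3, against 9.99, 10.16 and 10.12 in siCon. It rose 1.72-fold (adjusted p = 0.0373 in limma). The call was lost in each of the 6 fits that left out 1 array, with adjusted p from 0.076 without siCon 2 to 0.161 without siERK3 1. The list's median log2 change was -0.08. CCN1 is itself a known target of this factor as well as of YAP.

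The inputs to the cascade held no called gene. Of 21 actomyosin and receptor genes, 6 had higher and 2 had lower values in siERK3 at an unadjusted p below 0.05, where 6.98% of all genes were higher and 6.5% lower, and the median log2 change was 0.16. GNA13, a G protein subunit that signals to RhoA, had a log2 change of 0.47, MYL9, a myosin light chain, 0.49, and VCL, the adhesion protein vinculin, -0.34 (adjusted p = 0.204, 0.214 and 0.275 in limma). Of 17 kinases, degradation factors and nuclear cofactors of YAP and TAZ, SMAD3, a TGF-beta mediator that can bind TAZ, had a change of -0.75 and YES1, the kinase after which YAP is named, 0.74 (adjusted p = 0.0644 and 0.0712). BTRC, the ubiquitin ligase subunit that recognises phosphorylated YAP, had a change of 0.41 (adjusted p = 0.235). The groups did not overlap for these 3 genes.

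Among 11 other kinases that can act on LATS or YAP, MAP4K4 had a change of -0.41 and STK38 of 0.33, with adjusted p = 0.203 and 0.413 in limma. TAOK2, at 7.55 in siERK3 and 7.06 in siCon, lay above background on 3 siERK3 arrays and 0 siCon arrays (adjusted p = 0.259). Its siERK3 mean was 1.09-fold above the background bound, which leaves out the spread among arrays. Among 17 genes of the STRIPAK phosphatase complex and the RASSF family, which act on MST kinases, RASSF5 had a change of 0.45, SIKE1 of -0.31 and FGFR1OP2 of 0.26. Among 16 polarity and junction genes, FAT1, an atypical cadherin, had a change of -0.33. PATJ, a Crumbs complex scaffold, averaged 7.03 in siERK3 and 7.47 in siCon, with 0 siERK3 arrays and 2 siCon arrays above background. Its adjusted p in limma was 0.331. CDH1, the epithelial cadherin that feeds contact signals into the pathway, averaged 3.19 in siERK3 and 3.55 in siCon, below background on all 6 arrays.

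**Figure D5:**
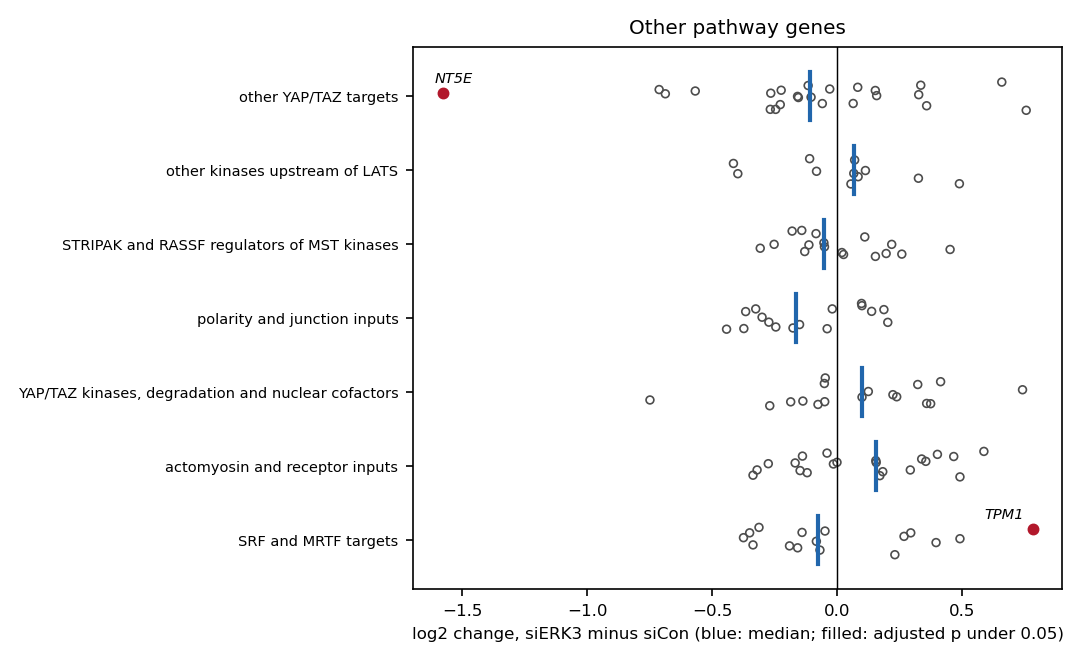
Log2 change (siERK3 minus siCon, horizontal axis) of the genes of 7 further pathway lists (rows), with blue bars for list medians and filled circles for adjusted p under 0.05 in limma. NT5E at -1.58 and TPM1 at 0.78 are filled, and the medians lie between -0.16 and 0.16.

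Markers of other cell types were set beside these values, since matrix-producing cells express CCN1 and CCN2 strongly. Keratinocyte and endothelial markers lay below background on all 6 arrays, 6 of 6 measured in each list. Of 8 fibroblast markers 2 lay above background on all arrays and 5 on none, with mean log2 levels of 6.34 to 6.60 in siERK3 and 6.20 to 6.38 in siCon. LUM, a small proteoglycan, fell by 0.83, with no overlap between groups, and lost its call without any 1 array (adjusted p 0.0825 to 0.157 in limma). PDGFRB, a growth factor receptor, lay above background on 3 siERK3 arrays and 0 siCon arrays (adjusted p = 0.0631 in limma). Its siERK3 mean was 1.18-fold above the background bound, which leaves out the spread among arrays. COL1A2 lay above background on all 6 arrays, at 7.90 in siERK3 and 8.11 in siCon, with overlapping groups. The fibroblast markers COL1A1, THY1, PDGFRA, DCN and FAP lay below background on all 6 arrays. Of these, FAP averaged 5.40 in siERK3 and 4.43 in siCon, without overlap between groups (adjusted p = 0.154 in limma). Of 6 leukocyte markers 2 (LYZ and CD68) lay above background, with mean levels of the list of 6.38 to 6.58 in siERK3 and 6.68 to 6.84 in siCon, and PTPRC, which all leukocytes carry, lay below it on all 6. LYZ, which encodes lysozyme, differed by -0.85 and CD68, a lysosomal protein, by -0.47 on the log2 scale, both without overlap between groups and neither past the test (adjusted p = 0.0965 and 0.152 in limma). The part these markers have in the CCN1 difference was not tested.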

How the data were processed

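Total RNA from 3 siERK3 and 3 siCon samples of A375 cells was hybridised to Affymetrix Clariom S Pico arrays, labelled with the WT PLUS kit per the labels' protocols. The authors' deposited values are log2 levels, 1 for each probe set on each array, from 1.84 to 19.4. That the scale is log2 was judged from the range of the values. The sources used here do not give the software or how background, summarisation and normalization were handled. Near-equal array medians show that arrays were normalized before deposit. On each array 1.46% to 1.61% of probe sets had values above 16, more than a scanner of 16 bits can record, so the zero point and any stretch of the scale are unknown and folds depend on them. A probe set's level is not comparable with another's.

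Of 24351 probe sets, 17709 had 1 gene symbol in the platform annotation and 0 had several. The brightest probe set was kept for each of 20 genes with more than 1, which left 17687 genes. No filter or pseudocount was applied. The comparison, siERK3 minus siCon with no covariate, was fitted with lmFit and eBayes of limma 3.58.1 (R 4.3.3) and adjusted by Benjamini-Hochberg over all genes. SE and intervals come from the same model (4.77 prior degrees of freedom). The number of arrays limits the precision. On simulated data with 200 changed genes among 17687, the fit recovered 62.9% of changes of 0.8 and 97.5% of changes of 1.2 (log2), with 5.11% false calls over 20 simulations. Where every array of 1 group was under its 95th percentile of negative controls for a gene, a fold is given as a bound against the higher of that percentile and the gene's own value.

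The members and the further gene lists were chosen with earlier results of these data known. By the naming rule, array values are given for members past the threshold, for members at an unadjusted p under 0.05 with no overlap, and for YAP1, WWTR1, the TEAD, LATS and MST genes, CCN1, CCN2 and ANKRD1. From each further list it names the genes past the threshold or otherwise up to 3 with the smallest p. Values for other members are added, and a few further genes were picked out with their values in view. Alternatives were other normalizations, filters on level, probe set rules, variance models, the replicate number as a block and arrays left out. The correlation of deviations between arrays with the same number was 0.05, -0.12 and -0.04, and with different numbers it ran from -0.15 to 0.17. The labels state no pairing, and 3 arrays per group cannot settle whether samples with the same number were handled together. Promoter windows and motif letters come from RefSeq, and proteins were not analysed here.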

Additional observations from a re-analysis of the deposited data

How the results depend on the processing

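Each result was recomputed under 17 other settings, 1 of them (leaving out both siERK3 3 and siCon 2) chosen after seeing the data. The 2 called members (CCN1 and YAP1) were also the called ones under quantile normalization, median subtraction, cyclic loess, a filter at the 30th percentile of mean level, averaging over probe sets and array weights. AMOTL1, CCN2 and WWTR1 joined them, making 5, among genes above the median of mean level and with a mean-variance trend and robust eBayes. With all probe sets tested, with the replicate block and without both siERK3 3 and siCon 2 the count was 0, and with 1 array left out it was 0 to 1. Over all genes, 169 passed, against 365 above the 30th percentile, 581 above the median, 722 with the trend, 70 with all probe sets, 33 with the replicate block, 7 without both arrays and 23 to 60 with 1 array left out. The settings differ in the genes tested or the arrays used, except that the trend and the replicate block keep both and change the model. What part each has in the counts was not tested. YAP1 passed in 8 of 17 settings (adjusted p up to 0.205) and CCN1 in 9 (up to 0.227). Under the replicate block the adjusted p was 0.143 for YAP1 and 0.102 for CCN1. The fitted changes of YAP1, from -0.93 to -0.74, CCN1, WWTR1, CCN2, TEAD1, TEAD2, TEAD3, LATS1, AMOTL1 and VGLL3 kept their direction in all settings where they were tested.

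Changes near 0 turned sign, none of them called. LATS2 was at -9.83e-05, -0.00416 and -0.0018 under quantile normalization, median subtraction and cyclic loess, and between -0.0382 and 0.0545 with 1 array left out. With 1 array left out, TEAD4 ranged from -0.176 to 0.116, STK3 from -0.0404 to 0.285, ANKRD1 from -0.3998 to 0.0128 and STK4 from -0.186 to 0.0622. STK4 was at 5e-05 without both siERK3 3 and siCon 2. ANKRD1 was removed by both level filters and TEAD4 and VGLL3 by the one at the median. MAPK6 stayed between -3.11 and -2.94 and past the threshold in all 17.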

Other observations

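The genes next to YAP1, WWTR1, CCN1 and CCN2 in the order of the RefSeq assembly GRCh38.p14 were looked up after the members' values were seen, taking the nearest 2 measured protein-coding genes on each side, 16 in all. Of these, 3 were past an unadjusted p of 0.05, against 13.5% of all genes. Limma's test over all genes was passed by 2, against 0.956% of all genes and 1.57% of those above background on all 6 arrays. DDAH1, which encodes an enzyme that breaks down an inhibitor of nitric oxide synthase and lies before CCN1, averaged 8.68 in siERK3 and 9.60 in siCon, a log2 change of -0.91 (SE 0.14; adjusted p = 0.0287). MOXD1, a monooxygenase-like gene after CCN2, averaged 8.04 in siERK3 and 7.24 in siCon, with 3 siERK3 arrays and 1 siCon array above background (adjusted p = 0.0442). It went the opposite way to CCN2. Both calls were lost in each of the 6 fits that left out 1 array, with adjusted p from 0.076 to 0.129 for DDAH1 and from 0.088 to 0.166 for MOXD1.

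TM4SF1, a membrane protein of the tetraspan type next to WWTR1, averaged 15.54 in siERK3 and 16.14 in siCon, which is a change of -0.60 (SE 0.13) with limma's adjusted p = 0.0749 and no overlap between groups, beside -0.58 for WWTR1. No neighbour of YAP1 passed the test: BIRC2, an apoptosis inhibitor gene, had a change of 0.16, TMEM123 of -0.14, CFAP300 of -0.20 and CEP126 of -0.31, none past an unadjusted p of 0.05.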
